A study of Caenorhabditis elegans with 2 samples.

Results

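Binding of the hypoxia-inducible factor HIF-1 was mapped by ChIP-seq in the nematode Caenorhabditis elegans, and the regions described here are those HIF-1 peaks that can be tied by position to 1 promoter. A peak was included when its summit fell in the window that begins 1000 bp before and ends 200 bp after a transcript start, for exactly 1 protein-coding gene (annotation of Ensembl release 115, WBcel235, the same assembly as ce11) and more than 250 bp from any tRNA, snRNA, snoRNA, rRNA or miRNA gene. Of the 3531 peaks that passed the authors' irreproducible discovery rate (IDR) step, which keeps regions ranked alike in both replicates, 1359 met the rule (38.5%). They lay in the promoter windows of 1240 of 19973 protein-coding genes (6.21%). The larvae came from strain OR3349, a stable transgenic line in which HIF-1 carries GFP and FLAG at its C-terminus, and chromatin was precipitated with an antibody against GFP. Whole L4 larvae of both sexes, pooled, were collected 52 hours after they were synchronized by starvation at L1, as 2 biological replicates of 1 group. The sources used here do not give the oxygen level, or the copy number and site of the transgene. No other condition, no control library and no ChIP of another protein was analysed here. Because whole animals were used, strong binding in few cells and weak binding in many cannot be told apart.

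HIF-1 is a bHLH-PAS transcription factor that binds DNA with its partner AHA-1, the worm ARNT. When oxygen is present, the prolyl hydroxylase EGL-9 modifies HIF-1, and VHL-1, the recognition subunit of a ubiquitin ligase, then directs it to the proteasome, so that HIF-1 accumulates when oxygen is low. The complex recognises the hypoxia response element, whose core is RCGTG, where R stands for A or G. Targets known in worms and mammals include genes of glycolysis, of sulfide and iron handling, and egl-9 itself, which closes a feedback loop.

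The DNA under the summits shows what these promoters have in common and where they differ. The 101 bases centred on the summit are given for 8 of the strongest peaks whose window holds no annotated exon, and for 3 further strong peaks without RCGTG that meet the same conditions (F26H9.5, described below, is not shown), in ce11 coordinates and 5′ to 3′ on the strand of the gene, as read from the RefSeq WBcel235 genome. Capitals mark each RCGTG, or its reverse complement CACGY with Y for C or T.
nhr-57 (chrV:4131639-4131739, plus strand): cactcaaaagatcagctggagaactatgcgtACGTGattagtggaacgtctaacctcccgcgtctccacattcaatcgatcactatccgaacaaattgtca
pck-1 (chrIII:67202-67302, minus strand): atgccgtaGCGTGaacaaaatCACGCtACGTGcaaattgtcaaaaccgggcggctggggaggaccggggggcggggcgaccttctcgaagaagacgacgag
Y59A8B.24 (chrV:17951346-17951446, plus strand): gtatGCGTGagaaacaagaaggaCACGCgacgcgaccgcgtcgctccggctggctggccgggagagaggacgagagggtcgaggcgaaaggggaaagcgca
pccb-1 (chrX:3090160-3090260, plus strand): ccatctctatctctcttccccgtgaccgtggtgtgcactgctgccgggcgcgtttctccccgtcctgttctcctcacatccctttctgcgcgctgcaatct
skn-1 (chrIV:5656117-5656217, minus strand): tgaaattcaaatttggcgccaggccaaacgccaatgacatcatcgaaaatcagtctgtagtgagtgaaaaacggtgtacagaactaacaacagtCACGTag
taap-1 (chrII:8483902-8484002, minus strand): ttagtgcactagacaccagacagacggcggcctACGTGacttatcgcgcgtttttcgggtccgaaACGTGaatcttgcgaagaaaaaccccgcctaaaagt
rhy-1 (chrII:9160383-9160483, plus strand): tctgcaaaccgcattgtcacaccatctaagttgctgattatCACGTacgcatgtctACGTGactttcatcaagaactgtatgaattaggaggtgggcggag
nurf-1 (chrII:14405283-14405383, plus strand): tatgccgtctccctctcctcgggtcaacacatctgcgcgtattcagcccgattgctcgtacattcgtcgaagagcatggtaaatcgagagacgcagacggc
C34B4.2 (chrV:13082646-13082746, plus strand): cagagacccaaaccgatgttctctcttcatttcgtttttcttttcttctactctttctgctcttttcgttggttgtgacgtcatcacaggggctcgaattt
gsy-1 (chrII:12878921-12879021, minus strand): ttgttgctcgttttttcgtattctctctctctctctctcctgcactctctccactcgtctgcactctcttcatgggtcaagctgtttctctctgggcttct
K12H4.5 (chrIII:8043911-8044011, plus strand): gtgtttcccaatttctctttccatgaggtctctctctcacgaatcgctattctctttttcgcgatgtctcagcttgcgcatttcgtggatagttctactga
The windows differ in how many sites they hold. The window of pck-1 holds 3 RCGTG sites, those of Y59A8B.24, taap-1 and rhy-1 hold 2 each, and those of pccb-1 and nurf-1 hold 0 although both peaks are among the 10 strongest.

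The signal of a peak is the authors' own value, for regions that they called against a control, and its exact definition is not stated in the sources used here. It was not scaled between lists, so it serves here to rank peaks within a list. The files hold no read counts, and the depth of the libraries is unknown. Over the 1359 peaks the signal had a median of 161 and ran from 95.3 to 4447, and 28 peaks (2.06%) exceeded 1000. The signal of the joint list was close to the sum of the replicate signals (median ratio 0.998 over 1311 peaks), so it is not a measurement apart from them.

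Both replicates held nearly all of these peaks. A candidate region with its summit within 100 bp was present in replicate 1 for 1324 peaks (97.4%), in replicate 2 for 1345 (98.97%) and in both for 1311 (96.5%, 95% exact Clopper-Pearson interval 95.3% to 97.4%), and 1 peak had none in either list. The candidate lists are permissive, with 30000 regions each and background among them. Among only the 3531 strongest candidates of each replicate, 960 peaks were found in both (70.6%, interval 68.1% to 73.1%). The share was lower for weaker peaks: it was 99.4% for the 340 strongest peaks, 94.1% and 72.1% for the following sets of 340, and 16.8% for the 339 weakest. Since the list was itself built from both replicates, these shares describe it and do not test it.

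**Figure D1:**
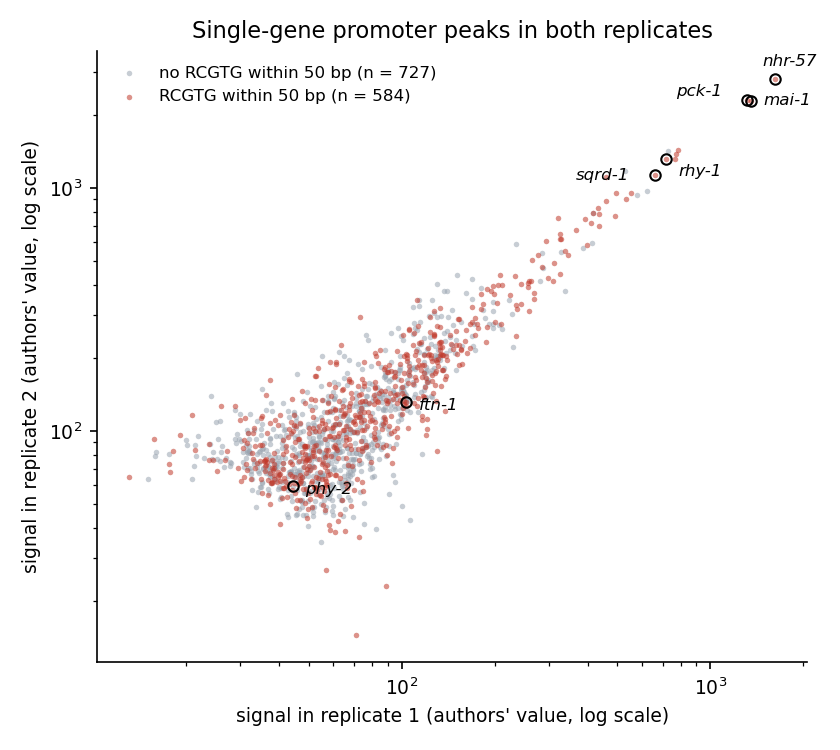
Signal of each peak in replicate 1 (x axis) and replicate 2 (y axis), both on log scales in the authors' own units, for the 1311 single-gene promoter peaks found in both, with peaks that hold RCGTG within 50 bp of the summit in red. The strong peaks form a narrow diagonal led by nhr-57, mai-1 and pck-1. Peaks with joint signals near 100 scatter widely, for instance ife-2 at 15.8 and 78.8 beside phy-2 at 44.4 and 59.7.

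Across those 1311 peaks, the signals of the replicates correlated with a Spearman coefficient of 0.727 and, as log2 values, a Pearson coefficient of 0.818. Peaks share libraries and are not independent, so no p is given. Replicate 2 gave the larger value at 1199 peaks, a difference between lists that were not scaled to each other. Each of the 50 strongest peaks ranked within the first 200 candidates of both replicates. Among the 100 strongest, the widest gap in rank belonged to mppb-1, which encodes a subunit of the mitochondrial processing peptidase, at rank 466 in replicate 1 and 125 in replicate 2. The gene aex-4, which encodes a SNARE of the SNAP25 family, followed, at ranks 502 and 174.

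The 10 strongest peaks lay at genes of different functions. The first was at nhr-57, whose expression serves as a reporter of HIF-1 activity and which encodes a nuclear hormone receptor, with signals of 1621 in replicate 1 and 2827 in replicate 2. The second was at mai-1, which encodes a homologue of the mitochondrial ATPase inhibitor, with 1354 and 2282 and a summit in the 5′ UTR, 176 bp downstream of the start. The third was at pck-1, phosphoenolpyruvate carboxykinase, with 1310 and 2311. After these 3 the signal dropped to 2229 at Y59A8B.24, annotated as an uncharacterized protein, with 785 and 1441 in the replicates. The order of the first 3 differed little between replicates: nhr-57 ranked 2 in both lists, mai-1 ranked 4 and 5, and pck-1 ranked 5 and 4.

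Next in order came pccb-1, the beta subunit of propionyl-CoA carboxylase, with 727 and 1425, and skn-1, the Nrf-family regulator of oxidative stress genes, with 773 and 1387. The tail-anchored protein gene taap-1 followed with 767 and 1323, then rhy-1 with 720 and 1320. The sulfide:quinone oxidoreductase gene sqrd-1 had 663 and 1130, and nurf-1, a subunit of the NURF chromatin remodelling complex, had 529 and 1181. All 10 of these peaks were among the 3531 strongest candidates of each replicate.

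The remaining 15 of the 25 strongest had joint signals from 1134 to 1573. C34B4.2, annotated with a fork-head domain, had 1573. Enzymes made up much of the set: gpi-1 (glucose-6-phosphate isomerase, 1567), F26H9.5 (annotated as phosphoserine aminotransferase, 1503), aldo-1 (aldolase, 1434), ldh-1 (lactate dehydrogenase, 1415), pcca-1 (propionyl-CoA carboxylase alpha subunit, 1351), enol-1 (enolase, 1218), gsy-1 (glycogen synthase, 1213), pdi-2 (protein disulfide isomerase, 1141), ipgm-1 (phosphoglycerate mutase, 1134) and mmcm-1 (methylmalonyl-CoA mutase, 1134). The others were rbr-2 (a histone H3 lysine demethylase of the JmjC family, 1502), rpl-3 (a ribosomal protein, 1257), F22B5.4 (1253) and farl-11 (1206).

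Most of the 1240 genes had a single peak: 1137 had 1, 87 had 2 and 16 had 3, and none had more. Among the 16, C34B4.2 had the highest signals (1573, 399 and 233), and 2 of its peaks share 1 deposited interval with different summits. Y65A5A.2 reached 1065, Y62E10A.13, annotated as phosphoserine phosphatase, reached 1042, and nhr-40, a nuclear hormone receptor gene, reached 954. The 3 peaks of egl-9 had signals of 981, 296 and 151, at -93, -216 and -971 bp from the nearest of its starts, and held 3, 1 and 0 RCGTG sites. Another IDR summit within 5000 bp was present for 659 of the 1240 genes (53.1%), with up to 13 at 1 gene. A promoter peak was thus often not the only peak near its gene. Whether this share exceeds that of other genes was not tested. In all, 55 of the 1359 peaks shared their interval with another summit.

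The summits gathered shortly upstream of the start. The median position was -259 bp, with quartiles at -494 and -127 bp, and 678 summits (49.9%) lay within 300 bp upstream. The densest stretch was -200 to -101 bp with 285 summits, against 190 from -100 to -1 bp. Downstream of the start lay 85. By annotation, 987 summits (72.6%) lay outside protein-coding genes, 219 were in an intron of the same gene and 71 in its 5′ UTR. A further 22 were in a coding exon and 58 inside another protein-coding gene. Genes of other types were not counted in this split, and at least 82 of the 1359 summits lay in genes annotated as ncRNA. The window was set by the rule, so only the spread inside it carries information.

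**Figure D2:**
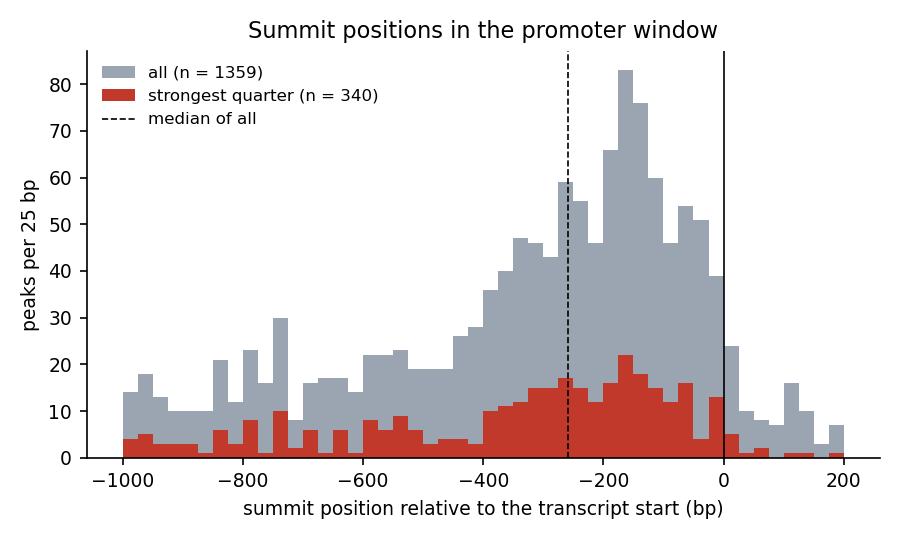
Number of summits per 25 bp (y axis) by distance from the transcript start in bp (x axis, negative values upstream), for all 1359 peaks in grey and the 340 strongest in red, with the median of all at -259 bp dashed. Both distributions rise towards the start, are highest between -200 and -101 bp, and drop downstream of it.

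The rule's limits cut through a continuous distribution. The 12 peaks inside the upstream limit by at most 20 bp had signals from 101 to 3614 with a median of 198, the highest being pck-1, and the 11 peaks just outside had a median of 144. At the downstream limit, 4 peaks inside had a median of 111 and 3 outside a median of 136. The distance from small RNA genes was exceeded by 20 bp or less for 2 peaks (104.3 and 370) and missed by as little for 0.

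Genes with such a peak were spread unevenly over the chromosomes. The X chromosome had a peak at 281 of 2731 genes (10.3%) and chromosome V at 195 of 4994 (3.90%), and the autosomes other than V lay between 4.97% and 7.08%. The median signal on X was 156, near the 161 of all peaks. No test was made of these shares.

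RCGTG was the next measure, since the rule did not use sequence. Within 50 bp of the summit, 604 of the 1359 peaks held it on either strand (44.4%, interval 41.8% to 47.1%). Windows of the same width held it in 206 cases (15.2%) 500 bp to the left and in 189 (13.9%) 500 bp to the right. The exact McNemar test, two-sided over peaks, gave p = 2.87e-62 against the left flank, where 507 peaks held the site only at the summit and 109 only in the flank. Against the right flank the numbers were 511 and 96 (exact McNemar p = 2.55e-69). Of all 19973 promoters, 14.02% held RCGTG in a window centred at -259 bp, the median summit position. The median GC content of these windows was 33.7%, against 46.5% at the summits, so this share is not matched for base composition. The p-values treat peaks as independent, which neighbouring peaks are not.

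Base composition moved with this result. The median GC content was 46.5% at the summits and 35.6% and 34.7% in the flanks. Restricted to peaks whose flank was within 5 percentage points of GC of the summit, a comparison added after the data were seen, 136 of 322 summits held RCGTG (42.2%) against 64 left flanks (19.9%; exact McNemar p = 1.5e-09). For the right flank it was 148 of 330 (44.8%) against 62 (18.8%; exact McNemar p = 5.92e-13). The ratio of summit to flank was 2.93 and 3.20 over all peaks and 2.13 and 2.39 in these subsets.

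The 604 peaks were chosen for a site within 50 bp of the summit, which limits the distances that follow. The nearest RCGTG was a median of 19 bp away. It was at most 10 bp away in 180 peaks (29.8% of the 604) and at most 25 bp in 378 (62.6%). The same distances were not taken in the flanks, so closeness to the summit was not tested by them. Relative to the gene, 306 sites read in its direction and 365 in the opposite one, and of 122 adjacent pairs of sites, 77 lay on the same strand and 45 on opposite strands. Both forms of the core were present, ACGTG in 356 peaks (26.2%, flanks 9.27% and 8.61%) and GCGTG in 310 (22.8%, flanks 6.40% and 6.03%). With the base before the core, TACGTG was in 8.39% of summits against 1.32% of left and 2.21% of right flanks. CGCGTG was in 7.43% of summits against 1.18% of either flank. The palindromic E-box CACGTG was in 6.03% against 2.21% of left and 1.84% of right flanks.

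**Figure D3:**
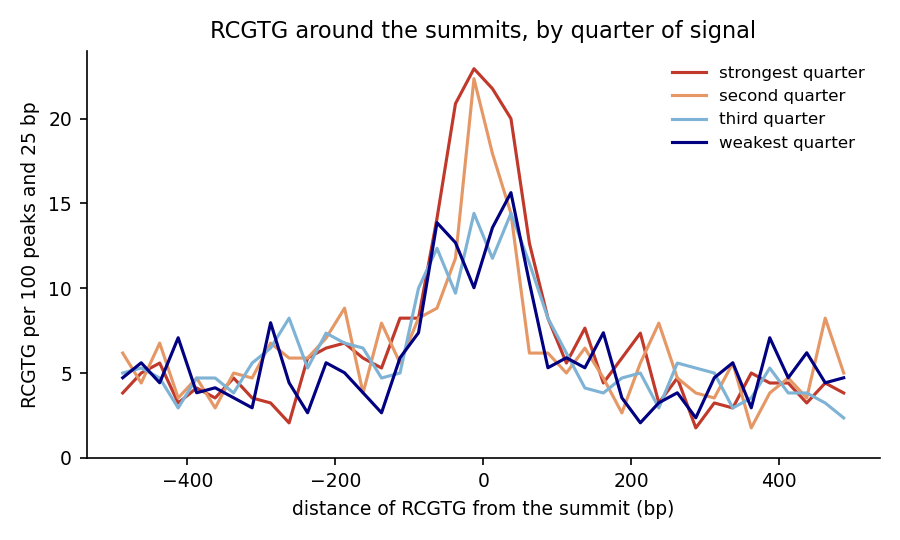
RCGTG sites per 100 peaks in bins of 25 bp (y axis) by distance from the summit in bp (x axis), for the 1359 peaks in 4 sets of equal size by signal. The strongest set rises highest at the summit and the weakest stays lower, and 55.9% and 38.1% of their peaks hold RCGTG within 50 bp.

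Stronger peaks held the site more often. Among the 340 strongest, 55.9% had RCGTG within 50 bp, among the next sets 46.2% and 37.6%, and among the 339 weakest 38.1%, while the left flanks stayed between 12.9% and 18.5%. In the weakest set the flanks held it in 16.22% and 14.7%. Of the 28 peaks with a signal over 1000, 22 held RCGTG within 50 bp (78.6%) and 26 within 75 bp (92.9%), against 28.6% and 25% of flanks at the wider distance.

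The 6 strong peaks without RCGTG within 50 bp differed in how far the nearest one was. It lay at 57 bp for F26H9.5, 53 bp for gsy-1, -54 bp for pccb-1 and -57 bp for C34B4.2, where the sign gives the direction along the chromosome, so these 4 missed the limit by a few bases. For nurf-1 it lay at -155 bp, and K12H4.5, an uncharacterized gene with signals of 413 and 596 in the replicates, had none within 500 bp.

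**Figure D4:**
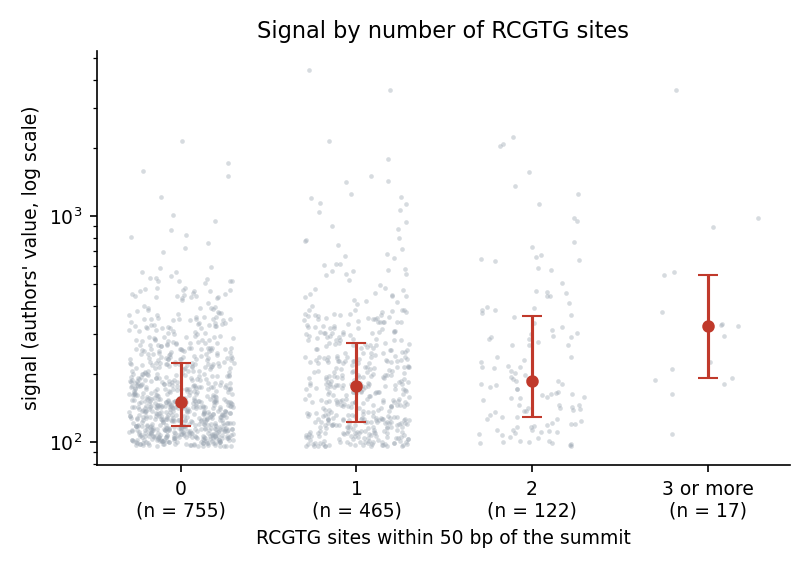
Signal of each peak on a log scale (y axis, authors' value) by the number of RCGTG sites within 50 bp of the summit (x axis), with the median and quartiles in red. The medians are 150, 177, 186 and 324 for 0, 1, 2 and 3 or more sites, and the groups overlap over most of their range.

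The median signal was higher with more sites, and the sets overlapped widely. The median signal was 150 for the 755 peaks with 0 sites, 177 for 465 with 1, 186 for 122 with 2 and 324 for 17 with 3 or more. In replicate 1 alone the medians were 62.6, 69.9, 72.6 and 130, and in replicate 2 they were 92.3, 110, 109 and 188. The spread within each set was wide, since quartiles were 117 and 222 with 0 sites and 123 and 275 with 1. The last set of 17 peaks includes pck-1, pyc-1, ftn-1 and the egl-9 peak nearest its start.

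The share of peaks with RCGTG was then compared with that of other classes of HIF-1 peaks (Fisher's exact test, two-sided, adjusted by Benjamini and Hochberg over 3 comparisons). In promoters shared by genes it was 40.4% of 567 peaks, 4.06 percentage points lower (interval of the difference -0.80 to 8.82, Fisher's exact adjusted p = 0.175). At distal intergenic peaks it was 40.97% of 808, 3.48 points lower (interval -0.84 to 7.75, Fisher's exact adjusted p = 0.175). At introns away from promoters it was 45.3% of 424, a difference of -0.84 points (interval -6.27 to 4.54, Fisher's exact adjusted p = 0.780). None of the 3 differences passed the threshold of 0.05, and the intervals include differences of several points. Against shared promoters the odds ratio of 1.18 rose to 1.36 with the site counted within 100 bp and to 1.58 among the stronger 50% of the IDR peaks, where it passed in both cases (Fisher's exact adjusted p = 0.00812 and 0.00197). Against intronic peaks, the site counted within 100 bp gave a call in the other direction, with an odds ratio of 0.77 (Fisher's exact adjusted p = 0.0432).

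All 6-mers were then compared between summits and both flanks, with strands merged. Of 2080, 797 (38.3%) passed the exact McNemar test against both flanks after Benjamini-Hochberg adjustment, 453 of them higher at the summits (21.8%) and 344 lower. Of the 16 6-mers that contain RCGTG, 15 were higher. The smallest p-value belonged to GAGAGA, in 350 summits against 72 and 59 flanks (exact McNemar adjusted p = 1.36e-46). AGAGAG was in 307 against 64 and 51, and GACGCA in 238 against 30 and 34 (exact McNemar adjusted p = 9.63e-39). GAGAGA was not particular to single-gene promoters. Its share was 25.8% there, 17.1% in shared promoters, 30.8% at distal intergenic peaks and 29.5% at intronic peaks away from promoters. The A- and T-rich AAAATT and AAAAAT were lower, in 240 summits against 618 and 586 flanks and in 316 against 681 and 687. The part of the GC difference between summits and flanks in these calls was not tested.

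Several of the higher 6-mers overlap GACGCA, for instance ACGCAG in 225 summits. They join to the element AGACGCAG of 8 bases, which was put together after the values were seen and is therefore only described. This element, on either strand, was within 50 bp of 157 summits (11.6%), in 8 left flanks (0.589%) and 10 right flanks (0.736%), and in 1.00% of all promoters at the median position. It was in 10.4% of peaks with RCGTG and in 12.45% of those without. Other classes held it too, 6.35% of peaks in shared promoters, 9.41% of distal and 8.73% of intronic peaks. The window of nurf-1 shown above contains it near its 3′ end, and other strong peaks with it include those of zfp-1 (871), hxk-3 (604), hsp-3 (452) and ethe-1 (448).

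AGACGCAG did not follow the signal as RCGTG did. From the strongest set of peaks to the weakest its share was 9.41%, 12.06%, 15.3% and 9.44%, and GAGAGA went from 23.2% and 23.5% to 28.2% and 28.0%. Peaks with RCGTG and no AGACGCAG had a median signal of 180 and 22 of them exceeded 1000. The 63 peaks with both elements had a median of 167, and 0 of them exceeded 1000. The 94 peaks with AGACGCAG and no RCGTG had a median of 152 and the 661 with neither a median of 150. These sets are descriptions of letters in a window, and no factor was assigned to either element.

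Of the gene groups, reported HIF-1-dependent hypoxia genes had the highest share with a single-gene promoter peak, 11 of 15 (73.3%), beside 6.21% of all protein-coding genes. The list was compiled from genes known for HIF-1, so it is not independent of the factor's known targets. Of its 13 peaks, 11 held RCGTG within 50 bp (44.4% over all 1359), and the median signal was 448 against 161 for all. After nhr-57, rhy-1 and sqrd-1 came F22B5.4 with 433 and 829 in the replicates, and the egl-9 peak nearest its start with 399 and 585. The cysteine dioxygenase gene cdo-1 had 183 and 333, the persulfide dioxygenase gene ethe-1 153 and 291, and the metal transporter gene smf-3 154 and 226. Weaker were cysl-2 (cyanoalanine synthase, 118 and 187) and ftn-1 (ferritin, 103.5 and 132). The weakest was phy-2, a subunit of collagen prolyl hydroxylase, with 44.4 and 59.7 and 0 RCGTG sites.

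The 4 genes of that list without such a peak were dct-1, fmo-2, ftn-2 and suox-1. Around fmo-2, a flavin monooxygenase gene, no IDR summit lay within 5000 bp of the gene, whereas dct-1 had 3 there, ftn-2 had 2 and suox-1 had 2, the strongest with 407, 381 and 171.

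Among 11 components of the HIF-1 pathway, 4 had a single-gene promoter peak. These were egl-9 and rhy-1, which both restrain HIF-1, hif-1 itself and aha-1. The peak of hif-1 was modest, with 82.7 and 143 in the replicates and 0 RCGTG sites, its summit 77 bp upstream of a start, and reads from the tagged transgene could map to the same locus. The aha-1 peak had 79.4 and 77.8 and also 0 sites. No IDR summit lay within 5000 bp of vhl-1, elb-1 or rbx-1, which act in HIF-1 turnover, whereas elc-1 and cul-2 of the same ubiquitin ligase had 2 and 1, the strongest with 272 and 102. For swan-1 there was 1 (429), and cysl-1, which binds EGL-9, had 2 with the strongest at 424. By signal, rhy-1 and egl-9 ranked 8 and 29 among the 1359 peaks, and hif-1 and aha-1 ranked 425 and 671.

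Glycolysis and gluconeogenesis, a list that also holds genes of pyruvate dehydrogenase, had 14 of 29 genes with a peak (48.3%). Their 15 peaks had a median signal of 548, and 11 held RCGTG (73.3%, beside 44.4% of all 1359). The peaks covered several steps, though not the whole route. They lay at the hexokinases hxk-3 (205 and 400 in the replicates) and hxk-1 (94.7 and 166) and the isomerase gpi-1 (460 and 1110). Next came the aldolases aldo-1 (496 and 952) and aldo-2 (67.9 and 102). Further along lay the kinase pgk-1 (90.9 and 188), the mutase ipgm-1 (437 and 698) and enol-1 (435 and 780). No listed gene of phosphofructokinase, triosephosphate isomerase, glyceraldehyde-3-phosphate dehydrogenase or pyruvate kinase had a single-gene promoter peak. At the end of the route lay ldh-1, which reduces pyruvate to lactate (531 and 899). Of the enzymes that lead pyruvate elsewhere, pyruvate carboxylase pyc-1 had 236 and 317, and pdhk-2, a kinase that inhibits pyruvate dehydrogenase, had 131 and 216.

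Some glycolytic genes without a single-gene promoter peak had a strong peak nearby. The glyceraldehyde-3-phosphate dehydrogenase genes gpd-2 and gpd-3 had the mai-1 peak (3627) within 5000 bp. In C. elegans these 3 genes form an operon in which mai-1 comes first, so the rule assigns the peak to mai-1. The peak by tpi-1 (2516) and that by pfk-1.1 (691) also lay outside the single-gene windows, and 0 IDR summits were found within 5000 bp of pyk-2 or pck-3.

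In propionate and branched-chain amino acid breakdown, 8 of 15 genes had a peak (53.3%). Propionyl-CoA is carboxylated by PCCA-1 and PCCB-1, and after epimerisation by MCE-1 the mutase MMCM-1 forms succinyl-CoA. The genes of both carboxylase subunits and of the mutase were among the 25 strongest, with pcca-1 at 459 and 889 in the replicates and mmcm-1 at 411 and 717, and mce-1 had a peak of 1551 in a shared promoter. The weaker members were alh-8 (113 and 121), bcat-1 (91.5 and 144), hphd-1 (89.7 and 130) and dbt-1 (66.5 and 61.1). The mmaa-1 peak (95.8) had no candidate summit in replicate 1. No IDR summit lay within 5000 bp of the leucine pathway genes mccc-1, mccc-2 and ivd-1.

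Sulfide, cysteine and methionine genes had a peak in 7 of 27 cases (25.9%), 6 of the 7 peaks with RCGTG (85.7%, beside 44.4% of all). Beside the hypoxia genes cdo-1, cysl-2, ethe-1 and sqrd-1, the others were mpst-3 (thiosulfate sulfurtransferase, 146), mthf-1 (methylenetetrahydrofolate reductase, 143) and mel-32 (serine hydroxymethyltransferase, 99.4). Of collagen prolyl hydroxylase and processing genes, 5 of 14 had a peak (35.7%), led by pdi-2 (393 and 750) and pdi-6 (140 and 203), while let-268, the lysyl hydroxylase, had 51.8 and 83.4. Of the 156 collagen genes named col, 0 had one, and 1 did without replicate 2, that is, with the 3531 strongest candidates of replicate 1 alone.

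The unfolded protein response had a peak in 6 of 14 genes (42.9%). The sensors and their transcription factors were of modest signal: xbp-1 (132 and 231 in the replicates), the kinase pek-1 (137 and 206), atf-6 (97.1 and 174), ire-1 (51.7 and 82.0) and the mitochondrial regulator atfs-1 (46.5 and 79.9). The bZIP factors had a peak in 9 of 25 (36%). RCGTG was held by 3 of their 10 peaks, beside 44.4% of all 1359. After skn-1 they were cebp-1 (170 and 224), zip-2 (112.01 and 262), atf-6, crh-1, crh-2, jun-1, zip-11 and zip-3, the last 5 with joint signals from 168 to 181.

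Autophagy genes had a peak in 10 of 31 cases (32.3%) and 3 of their 14 peaks held RCGTG (21.4%, beside 44.4% of all). They were led by hlh-30, the TFEB orthologue, whose strongest of 3 promoter peaks had 207 and 274, and by the Atg8 homologues lgg-2 (97.3 and 164) and lgg-1 (103 and 142.3). The vacuolar ATPase, which acidifies lysosomes, had 6 of 21 (28.6%), with vha-12 (156 and 215) and vha-13 (89.8 and 134) highest. The stress and nutrient regulators had 8 of 36, among them mdl-1, a Mad homologue (199 and 366), nhr-49 (143 and 250), mxl-3 (64.2 and 147) and daf-16, the FOXO factor (66.3 and 110).

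**Figure D5:**
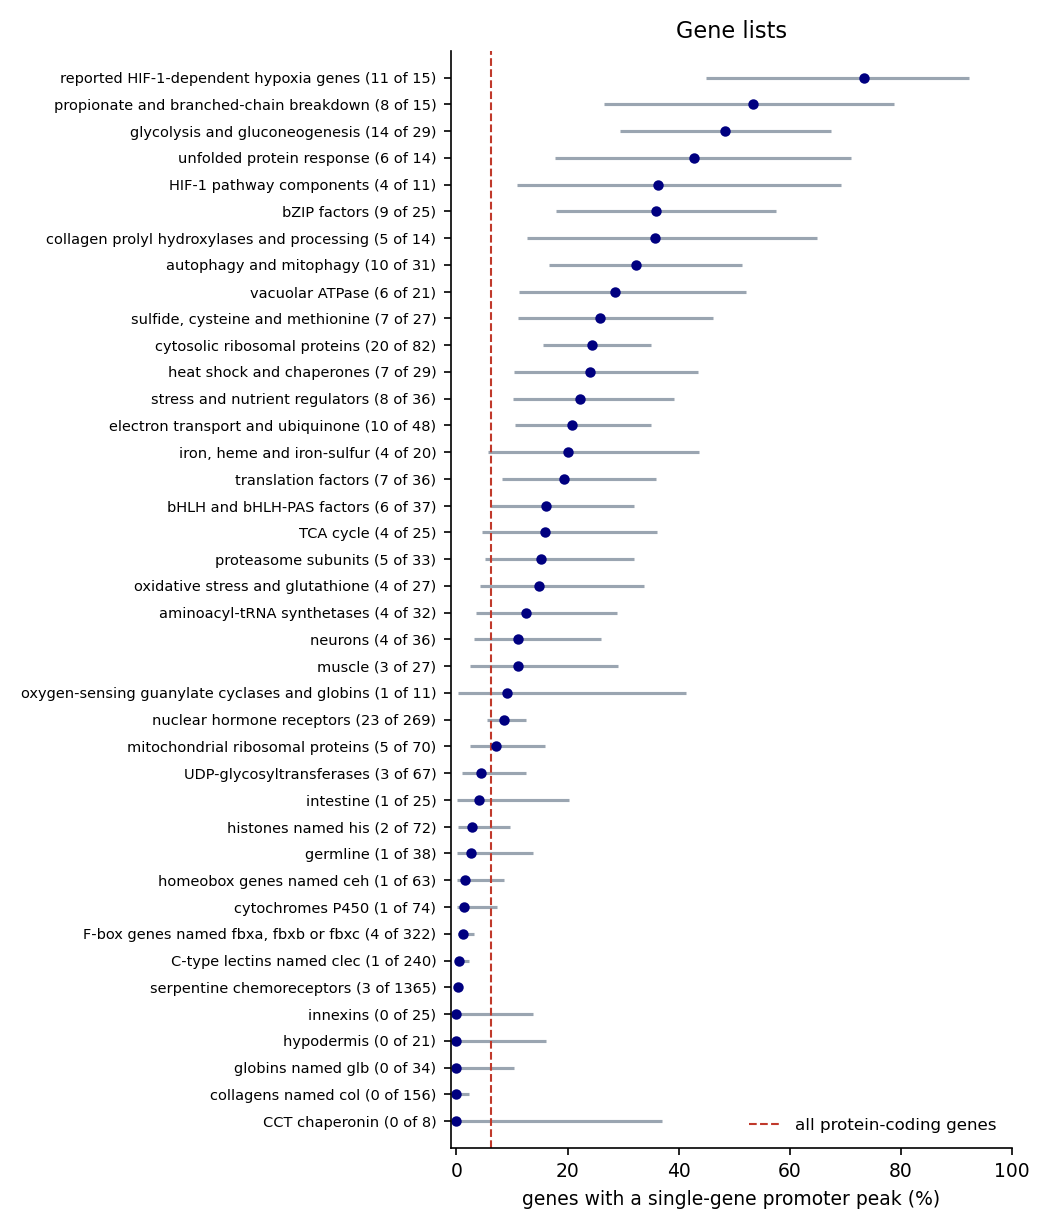
Percentage of genes in each of 40 gene lists with a single-gene promoter peak (x axis) with the exact 95% Clopper-Pearson interval for counting error, and the 6.21% of all protein-coding genes as a dashed line. Hypoxia genes (73.3%), propionate and branched-chain breakdown (53.3%) and glycolysis and gluconeogenesis (48.3%) lie at the top, and collagens, innexins and globins at 0 (1, 2 and 0 without replicate 2).

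Over all protein-coding genes, 1096 (5.49%) had a peak only in a shared promoter, beside the 6.21% with a single-gene promoter peak. Of 82 cytosolic ribosomal protein genes, 20 had a single-gene promoter peak (24.4%) and 43 more had a peak only in a shared promoter. The highest were rpl-3 (490 and 768 in the replicates), rpl-35 (257 and 407), rps-24 (198 and 313) and rpl-11.2 (145 and 226). RCGTG was held by 7 of the 20 peaks (35%, beside 44.4% of all 1359). The proteasome had 5 of 33 (3 without replicate 1) with 12 more in shared promoters, and the TCA cycle 4 of 25 with 8 more, where sucl-1 (125 and 200) and cts-1, citrate synthase (100 and 117), led. Translation factors had 7 of 36 with 10 more, led by eef-1A.2 (263 and 414), and chaperones 7 of 29 with 8 more, led by hsp-1 (281 and 415). The vacuolar ATPase, in contrast, had 6 genes with a single-gene promoter peak and 3 more in shared promoters. Of the CCT chaperonin's 8 genes, 0 had a single-gene promoter peak and 5 had a peak in a shared one.

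Electron transport had 10 of 48 genes with a peak and 13 more in shared promoters. Beside mai-1, they included mai-2 (298 and 426) and the cytochrome c oxidase genes cox-5A (268 and 372), cox-6A (224 and 364) and cox-5B (211 and 262). Iron genes had 4 of 20, with mfn-1 (141 and 294) above smf-3 and ftn-1, and hrg-1, a heme transporter, with 2 peaks that were each missing from 1 replicate list. Of 269 nuclear hormone receptor genes, 23 had a peak (8.55%), near the background, with nhr-40 (387 and 566) and nhr-135 (203 and 338) after nhr-57.

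Several gene families had shares below the 6.21% of all protein-coding genes, not all of them beyond counting error. The serpentine chemoreceptors had 3 of 1365 (0.220%), F-box genes 4 of 322, C-type lectins 1 of 240, cytochromes P450 1 of 74, UDP-glycosyltransferases 3 of 67, histones 2 of 72, homeobox genes named ceh 1 of 63, and innexins and globins 0 of 25 and 0 of 34. Without replicate 2, innexins had 2, F-box genes 2 and cytochromes P450 0. Among the tissue markers, muscle (3 of 27, 11.1%) and neurons (4 of 36, 11.1%) had shares above the 6.21%. Those of intestine (1 of 25, 4%), hypodermis (0 of 21) and germline (1 of 38, 2.63%) were below it. The interval of every tissue included 6.21%, so none could be told apart from all protein-coding genes. The joint signals of the tissue marker peaks were at most 215. Without replicate 2, muscle had 5 and intestine 3, and without replicate 1 intestine had 2. The other lists were aminoacyl-tRNA synthetases (4 of 32), mitochondrial ribosomal proteins (5 of 70), bHLH factors (6 of 37), oxidative stress and glutathione genes (4 of 27) and oxygen-sensing guanylate cyclases and their partners (1 of 11). Together the lists held 192 of the 1240 genes with a peak.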

How the data were processed

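HIF-1 ChIP-seq of 2 biological replicates was used as deposited (ce11). The authors called regions against a control and, per the samples' own file lists, derived an IDR list from both replicates. For aligner and caller, names were not given in the sources used here. Each region's signal was taken as the authors deposited it. Column 10, the deposited offset of the summit from the region's start, gave the summit. The ce10 lists and the pooled candidate list were not used here.

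Summits were assigned to genes of Ensembl release 115, and sequence was read from RefSeq WBcel235. RCGTG was searched within 50 bp of summits and in flanks of the same width, 101 bp, centred 500 bp away. Exact McNemar tests compared summits with flanks, Fisher's exact tests compared peak classes, and an adjusted p under 0.05 was called. Intervals are 95% and cover counting error only. Gene lists are described by counts, without a test, and 11 names matched no gene. The text names the genes of the 25 strongest peaks, up to 4 peaks of each list by signal and 5 6-mers by adjusted p. Of the 16 genes tied at the largest number of peaks, the 5 with the highest signal were named for it. Further list genes, those without a peak, the element AGACGCAG and the gaps in rank were named after their values were seen. The regions, lists and tests were chosen with earlier results of these data known. Alternatives changed the threshold, replicate, window, small RNA filter, motif distance and flanks. The code was tested on simulated data. Python 3.11.15, numpy 2.4.6, pandas 2.3.3, scipy 1.17.1 and matplotlib 3.10.9 were used.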

Additional observations from a re-analysis of the deposited data

How the results depend on the processing

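RCGTG was commoner at summits than in flanks under every alternative run, with ratios of 2.26 to 3.61 (3.06 as reported) and 2.85 to 3.20 with 1 replicate's strongest regions alone, and 6-mers called numbered 547 to 799. With only the stronger 50% of the IDR peaks there were, by construction, fewer: 691 peaks in 647 genes, of which 98.3% were in both replicates, the median position was -273 bp, and the odds ratio against shared promoters was 1.58. With the site within 100 bp, the odds ratios were 1.36 against shared, 0.988 against distal (Fisher's exact adjusted p = 0.927) and 0.77 against intronic peaks (Fisher's exact adjusted p = 0.0432, past the threshold). Without either replicate they were 0.9999 to 1.245, 1.08 to 1.12 and 0.929 to 1.085, the lowest of the first and the highest of the last on the other side of 1, both without replicate 2, and peaks numbered 1336 to 1376, genes 1210 to 1256, the signal ratio of 2 or more sites to 0 was 1.23 to 1.43 (1.28 as reported), and the position -265.5 to -258 bp. The cause was not tested. Peaks found in both replicates were 82.5% within 50 bp, 99.3% within 200 bp and 70.6% among strongest candidates. Of 280 gene list counts under alternatives, 233 stayed within 1.5 times. Hypoxia genes went from 11 to 7 and HIF-1 pathway components from 4 to 2 with a window of 500 bp. Several lists moved further than that with a window wider than 1000 bp. Among them, electron transport went from 10 to 6, chaperones from 7 to 4 and aminoacyl-tRNA synthetases from 4 to 2. Sulfide, cysteine and methionine genes rose from 7 to 12, and stress and nutrient regulators from 8 to 14. Cytosolic ribosomal proteins went from 20 to 12 with the wider window and to 26 with 500 bp. Leaving out replicate 1 took the proteasome from 5 to 3 and intestine from 1 to 2, and leaving out replicate 2 took intestine from 1 to 3, muscle from 3 to 5, innexins from 0 to 2, collagens from 0 to 1, F-box genes from 4 to 2 and cytochromes P450 from 1 to 0. No paired analysis was possible because there is only 1 group.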

Other observations

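All 3 enzymes that make serine from 3-phosphoglycerate, an intermediate of glycolysis, had a single-gene promoter peak, a pattern picked out after the values were seen and given without a test. The first, phdh-1 (annotated as D-3-phosphoglycerate dehydrogenase), had 286 in replicate 1 and 475 in replicate 2, F26H9.5 (phosphoserine aminotransferase) had 576 and 936, and Y62E10A.13 (phosphoserine phosphatase) had 368 and 674. RCGTG lay within 50 bp of the strongest summit of phdh-1 and of Y62E10A.13, and 57 bp from that of F26H9.5.

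The genes of mitochondrial import and processing tin-44 (284 and 540) and mppb-1 (130 and 403) also had strong peaks, as did acer-1, annotated as acetyl-CoA hydrolase (294 and 606), and efk-1, the kinase of elongation factor eEF2 (265 and 505).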
